A study of Mus musculus with 12 samples.

Results

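The genes of the presynaptic active zone were examined in poly(A) RNA-seq of the mouse hippocampus. They were chosen by symbol from the Ensembl gene IDs of the count data as the Piccolo, Bassoon, RIM, Munc13, ELKS and liprin genes *Pclo*, *Bsn*, *Rims1*, *Rims2*, *Unc13a*, *Unc13c*, *Erc1*, *Erc2*, *Ppfia2* and *Ppfia3*. All 10 were found among 37991 gene IDs, and all 10 were among the 16399 genes with enough reads to be tested. The libraries came from 12 mice of the strain C57BL/6N aged 6 to 7 months, of which 6 are labelled Wildtype and 6 Gadd45a-KO. Heterozygous parents were crossed to obtain both genotypes. Every mouse of both labels had gone through the passive avoidance (PA) test, in which an animal learns to avoid a compartment where it received a foot shock, and hippocampi were collected 1 h later. In the knockout line, according to the methods of the study, a neomycin cassette stands in place of the first exons of *Gadd45a*, and the last exon remains.

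The active zone is the patch of presynaptic membrane at which synaptic vesicles dock, are primed and fuse. Piccolo and Bassoon are very large scaffold proteins that organise this patch and the vesicles behind it. RIM proteins tether vesicles and calcium channels, Munc13 proteins prime vesicles for fusion by acting on the SNARE proteins, and ELKS proteins and liprins-alpha join the scaffold and help to recruit its other parts. In the hippocampus this machinery serves both the glutamatergic synapses between principal cells and the synapses of inhibitory interneurons.

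Of the active zone genes, *Pclo* was the only one that passed the test for a difference between the labels at a false discovery rate (FDR) of 1%. Its level in the libraries labelled Gadd45a-KO was 68.7% of that in the libraries labelled Wildtype. *Bsn*, its closest relative, and the RIM, Munc13, ELKS and liprin genes did not pass the test at 1% FDR. At that threshold 1 of the 10 members was lower, against 2.62% of all tested genes, and 0 were higher, against 0.0244% (quasi-likelihood test of edgeR, with Benjamini-Hochberg adjustment over all tested genes). At an unadjusted p under 0.05 there were 2 of the 10 members, *Pclo* and *Ppfia2*, against 13.7% of all tested genes in either direction. At 1% FDR DESeq2 also called 1 member lower and 0 higher, against 660 lower and 18 higher of 25852 genes with a p-value. That total includes any genes that the own filter of DESeq2 kept from being called, so it is unlike that of edgeR. At 5% FDR there was still 1 lower member, against 4.43% of all tested genes. The median log2 fold change, Gadd45a-KO against Wildtype, was -0.05 over the members and 0.00 over all tested genes.

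The sequences before the start of 4 members are shown because these genes form the pairs with the largest contrasts in the data, *Pclo* against *Bsn* in the difference between the labels and *Unc13a* against *Unc13c* in level. Each runs 5′ to 3′ on the strand of the gene over the 250 bases before the transcript start, as given by RefSeq for GRCm38.p6, a later build than that of the counts. Capitals mark the GC box GGGCGG, searched on both strands, which is bound by Sp-family factors. The stretch of *Pclo* is chr5:14514668-14514917 on the plus strand, that of *Bsn* chr9:108190384-108190633, that of *Unc13a* chr8:71671758-71672007 and that of *Unc13c* chr9:73969038-73969287, the last 3 on the minus strand.
Pclo: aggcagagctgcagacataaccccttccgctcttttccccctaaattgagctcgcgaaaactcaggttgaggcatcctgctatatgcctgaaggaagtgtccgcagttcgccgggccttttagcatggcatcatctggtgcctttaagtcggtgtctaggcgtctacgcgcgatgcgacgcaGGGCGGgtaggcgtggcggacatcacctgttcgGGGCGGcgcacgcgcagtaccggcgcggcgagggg
Bsn: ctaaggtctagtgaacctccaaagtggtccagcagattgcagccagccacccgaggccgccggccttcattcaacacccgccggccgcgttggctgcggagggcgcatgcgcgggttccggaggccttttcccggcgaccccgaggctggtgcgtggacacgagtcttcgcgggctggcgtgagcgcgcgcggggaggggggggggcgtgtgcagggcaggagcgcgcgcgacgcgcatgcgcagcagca
Unc13a: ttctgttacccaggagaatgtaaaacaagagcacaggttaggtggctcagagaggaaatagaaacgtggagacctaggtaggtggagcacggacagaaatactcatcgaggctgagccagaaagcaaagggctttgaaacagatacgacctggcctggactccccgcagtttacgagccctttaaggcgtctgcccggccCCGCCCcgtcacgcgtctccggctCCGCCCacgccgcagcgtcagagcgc
Unc13c: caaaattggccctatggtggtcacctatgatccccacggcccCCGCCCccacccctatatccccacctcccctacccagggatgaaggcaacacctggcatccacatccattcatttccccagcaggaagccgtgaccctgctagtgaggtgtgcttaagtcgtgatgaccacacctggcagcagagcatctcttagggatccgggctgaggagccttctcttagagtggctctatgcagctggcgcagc
Motifs were counted in the RefSeq windows, which run on to 50 bases after the start. The *Pclo* window held 4 GC boxes, of which 2 lie wholly in the printed stretch, and 35 CpG dinucleotides, and the *Bsn* window 0 GC boxes and 38 CpGs. The *Unc13a* window held 2 GC boxes and 27 CpGs, and that of *Unc13c*, the member with the lowest level, 1 GC box and 6 CpGs, close to the median of 7 CpGs over all 32851 promoter windows. A sequence was given for 9 members, with none for *Rims2*. A GC box was present in 8 of these 9 windows, against 35.7% of all windows. The letters TATAAA were in 0 of the 9 and in 13.6% of all windows, and the cyclic AMP response element TGACGTCA in 0 of the 9 and in 1.79% of all windows. These matches describe the letters in the windows and were not linked to any reading of the factors.

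Between 44594261 and 55540601 reads per library fell on genes, and members had from 144 reads, for *Unc13c*, to 32175, for *Unc13a*. Counts are given as CPM, the count per 1000000 reads, after scaling with the TMM factors of edgeR. The targeted gene went against its label. *Gadd45a* had 2.19 to 3.43 CPM in the libraries labelled Wildtype and 20.5 to 23.1 CPM in those labelled Gadd45a-KO (log2 fold change 3.06, SE 0.09, adjusted p = 1.33e-10 from edgeR), so that libraries are named by label throughout and each direction is read from labels. Gene counts do not separate the deleted exons from the exon that remains. Replicates 2 and 3 labelled Gadd45a-KO stood apart by markers of the thalamus, which lies next to the hippocampus. Over 7 such markers their summed level was 319 and 509 CPM, against 118 to 154 CPM in the other 4 libraries of that label and 113 to 155 CPM in those labelled Wildtype. Markers of oligodendrocytes summed to 7311 CPM in replicate 3 labelled Gadd45a-KO and to 2317 to 3738 CPM in the other libraries of both labels. Hippocampal excitatory neuron markers were present in every library, summing to 6176 to 7816 CPM over 10 genes. Interneuron markers summed to 542 to 630 CPM. The 5 cerebellar markers summed to 2.02 to 4.07 CPM, and 2 of them had enough reads to be tested. The cerebellar markers *Gabra6*, *Pcp2* and *Barhl1* had under 10 reads in every library. Results that these libraries touch are given with and without replicates 2 and 3 labelled Gadd45a-KO, a choice made after seeing the data.

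*Pclo* (ENSMUSG00000061601) encodes Piccolo and lies on chromosome 5 of NCBIM37 from 14514918 to 14863457, on the plus strand. In the libraries labelled Wildtype its lowest, median and highest levels were 210, 246 and 263 CPM. In those labelled Gadd45a-KO they were 151, 165 and 184 CPM. Every library labelled Gadd45a-KO lay under every one labelled Wildtype, which held for 3.12% of all tested genes. The means were 240 ± 22.7 and 165.0 ± 11.7 CPM (SD, n = 6 each), from 9547 to 14339 and from 7376 to 8743 reads. *Pclo* fell by 0.54 on the log2 scale (SE 0.06, adjusted p = 0.000143 from edgeR), with a 95% interval of the remaining level from 62.5% to 75.4%. When each of the 12 libraries was dropped in turn, the log2 fold change ranged from -0.57 to -0.51, with an adjusted p of at most 0.000897 from edgeR. Without replicates 2 and 3 labelled Gadd45a-KO it was -0.54 (adjusted p = 0.00131 from edgeR), and *Pclo* was again the 1 lower member, against 1.20% of all tested genes in that fit. In tissue RNA, fewer cells that express a gene and less of its RNA per cell cannot be told apart. A gene count also does not show where along a transcript the reads differ. For other genes of these libraries the study reports lower exon coverage in the knockout with similar coverage at the far end of the 3′UTR. Whether *Pclo* has such a pattern was not tested.

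**Figure D1:**
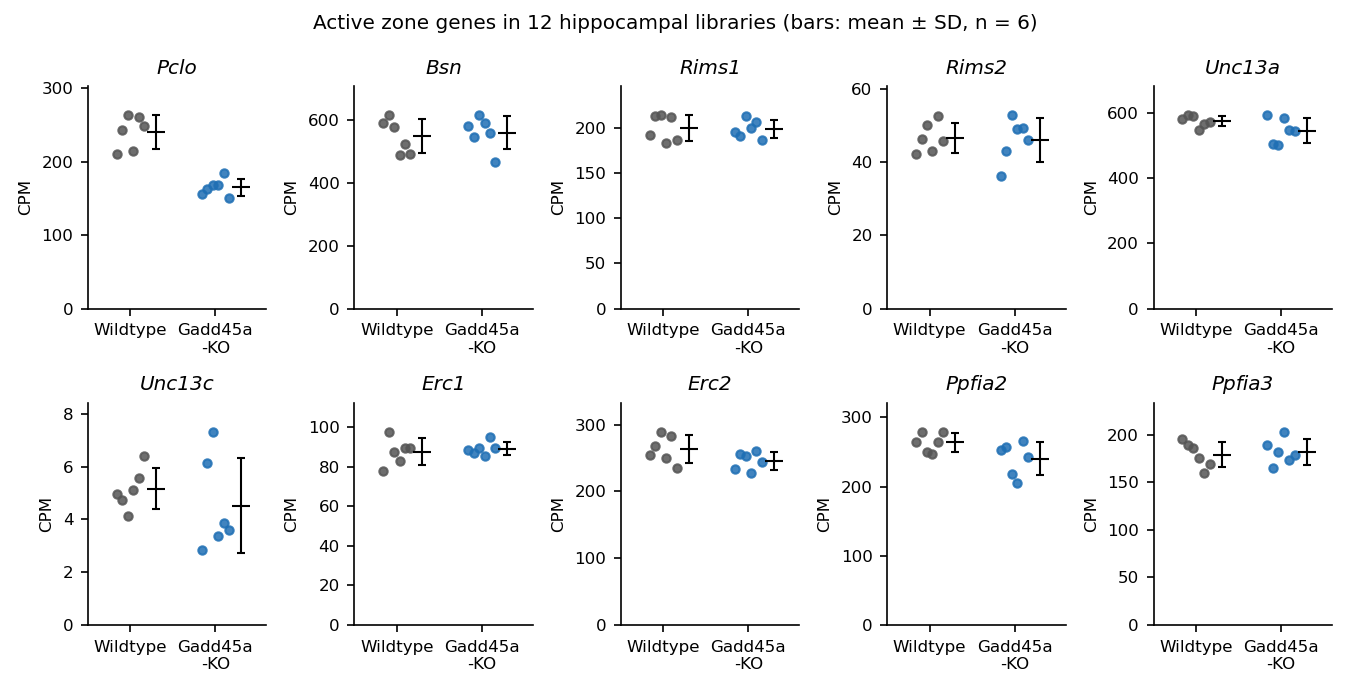
CPM of each active zone gene in the 6 libraries labelled Wildtype (grey) and the 6 labelled Gadd45a-KO (blue), with every axis starting at 0 and the mean ± SD beside the points. The Pclo points of the 2 labels do not overlap (210 to 263 against 151 to 184 CPM), while those of every other gene do.

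*Pclo* has the longest annotated exon sequence of the members, at 20439 nt, followed by *Bsn* at 15937 nt, and the others range from 5293 to 9711 nt. Over all tested genes, calls differed between length classes. Of 157 genes with an exon length of at least 15000 nt, 33 were lower at 1% FDR (21.0%), against 203 of 4055 genes (5.01%) from 5000 to under 10000 nt. The median log2 fold change was -0.17 in the longer class and -0.02 in the shorter one. With a smooth offset for exon length in each library, the log2 fold change of *Pclo* was -0.37 (SE 0.04, adjusted p = 6.60e-05 from edgeR), and that of *Bsn* was 0.16 (adjusted p = 0.340 from edgeR). *Pclo* thus passed the threshold with the offset as well.

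**Figure D2:**
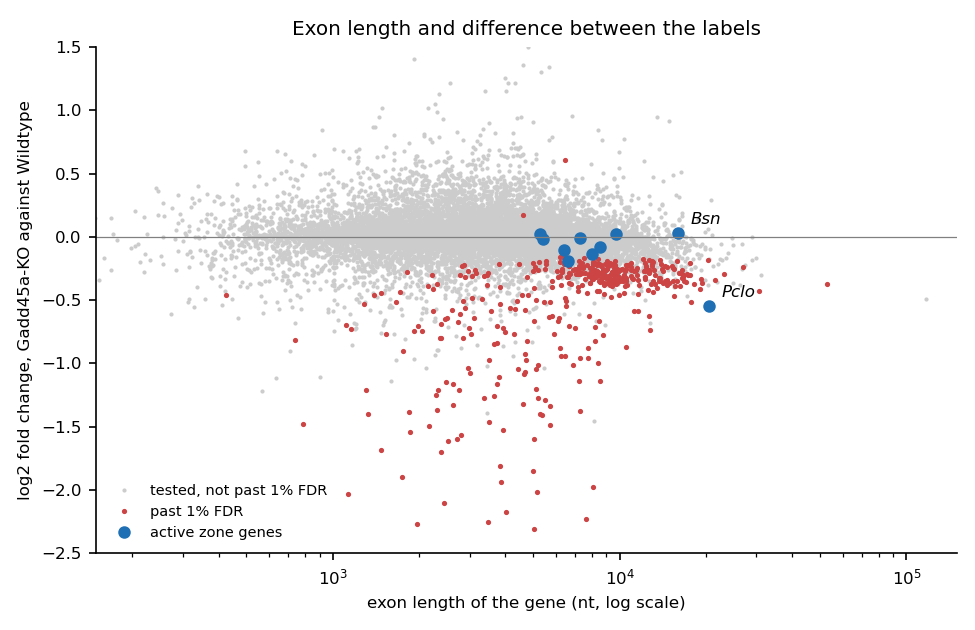
Log2 fold change, Gadd45a-KO against Wildtype, against the exon length of each tested gene (log axis), with genes past 1% FDR in red and the active zone genes in blue; 133 genes outside the axes are not drawn. Pclo and Bsn, with 20439 and 15937 nt, lie at -0.54 and 0.03.

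*Bsn* (ENSMUSG00000032589), which encodes Bassoon, lies on chromosome 9 of NCBIM37 from 107998354 to 108092715, on the minus strand. It had a lowest, median and highest level of 489, 550 and 615 CPM in the libraries labelled Wildtype, and of 466, 570 and 615 CPM in those labelled Gadd45a-KO. The ranges of the 2 labels cover each other almost entirely. The log2 fold change was 0.03, with a 95% interval from -0.12 to 0.19 (adjusted p = 0.917 from edgeR). Exons of *F630040L22Rik* on the opposite strand overlap part of *Bsn*, and the counting took the strand into account.

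Because Piccolo and Bassoon share much of their structure and role, the ratio of both transcripts was compared within each library, which does not depend on the scaling of the library. The log2 ratio of *Pclo* to *Bsn* lay between -1.49 and -0.98 in the libraries labelled Wildtype and between -1.90 and -1.60 in those labelled Gadd45a-KO. The labels did not overlap, and the ratio was lower by -0.57 (95% interval -0.78 to -0.36) in the libraries labelled Gadd45a-KO. A two-sided exact permutation test gave p = 0.00216, the lower limit of this test for groups of 6, and 0.0108 after adjustment over the 5 gene pairs compared. Without replicates 2 and 3 labelled Gadd45a-KO the difference was -0.55 (adjusted exact p = 0.0476), and with the offset for exon length it was -0.54. Per length, *Pclo* made up 25.6% ± 2.56 (SD, n = 6) of the summed level of both genes in the libraries labelled Wildtype and 18.8% ± 1.31 (SD, n = 6) in those labelled Gadd45a-KO.

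The RIM genes *Rims1* and *Rims2* encode the central organisers that hold vesicles and calcium channels together. *Rims1* had a lowest, median and highest level of 183, 202 and 215 CPM in the libraries labelled Wildtype and of 187, 198 and 213 CPM in those labelled Gadd45a-KO. *Rims2* had 42.1, 46.0 and 52.7 CPM and 36.1, 47.6 and 52.8 CPM. The labels overlapped for both genes. The log2 fold change was -0.01 for *Rims1* (95% interval -0.11 to 0.10, adjusted p = 0.966 from edgeR) and -0.02 for *Rims2* (95% interval -0.20 to 0.15, adjusted p = 0.955 from edgeR). The sign of either value changed when single libraries were left out, and that of *Rims1* also with the offset for exon length. Their log2 ratio, *Rims1* to *Rims2*, differed by 0.02 between the labels (95% interval -0.15 to 0.18, exact permutation p = 0.877, the same after adjustment over the 5 pairs).

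The Munc13 genes *Unc13a* and *Unc13c* encode vesicle priming factors, the first the main form of forebrain synapses and the second a form known best from the cerebellum. *Unc13a* had a lowest, median and highest level of 549, 578 and 594 CPM in the libraries labelled Wildtype and of 501, 546 and 595 CPM in those labelled Gadd45a-KO. Under the label Gadd45a-KO, 4 libraries lay beneath the whole Wildtype range, a count not made over all genes, but the highest lay above it. Its log2 fold change was -0.08 (95% interval -0.17 to 0.02, adjusted p = 0.519 from edgeR), and -0.02 without replicates 2 and 3 labelled Gadd45a-KO, which were the lowest libraries at 506 and 501 CPM.

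*Unc13c* was the member whose value depended most on the libraries that stood apart. It had 4.12 to 6.41 CPM in the libraries labelled Wildtype, with a median of 5.05 CPM. Replicates 2 and 3 labelled Gadd45a-KO, which were high in thalamus markers, had 6.13 and 7.33 CPM. Replicates 1, 4, 5 and 6 of that label had 2.82, 3.37, 3.88 and 3.59 CPM, all below every library labelled Wildtype, which held for 3.70% of all tested genes in these 4 libraries. Over all libraries the log2 fold change was -0.19 (SE 0.21, 95% interval -0.63 to 0.25, adjusted p = 0.792 from edgeR). Without replicates 2 and 3 labelled Gadd45a-KO it was -0.59 (SE 0.12, adjusted p = 0.0194 from edgeR), which did not pass 1% FDR either. At 144 to 380 reads, counting error is larger here than for any other member. The part of the thalamus markers in the *Unc13c* values was not tested. The log2 ratio of *Unc13a* to *Unc13c* differed by 0.18 over all libraries (95% interval -0.43 to 0.79, exact permutation p = 0.532, 0.666 after adjustment over the 5 pairs). It differed by 0.56 without both replicates (exact permutation p = 0.0476 after adjustment), a choice made after seeing the data.

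The ELKS genes *Erc1* and *Erc2* encode coiled-coil proteins of the active zone, of which the product of *Erc1* is also found outside synapses and that of *Erc2* mainly in neurons. *Erc1* had a lowest, median and highest level of 77.6, 88.4 and 97.7 CPM in the libraries labelled Wildtype and of 85.1, 88.9 and 94.9 CPM in those labelled Gadd45a-KO. *Erc2* had 236, 262 and 290 CPM and 227, 249 and 261 CPM. Each of the 6 libraries labelled Gadd45a-KO lay beneath the Wildtype mean of *Erc2*, a count not made over all genes. The labels overlapped for both genes. The log2 fold change was 0.03 for *Erc1* (95% interval -0.08 to 0.13, adjusted p = 0.898 from edgeR) and -0.10 for *Erc2* (95% interval -0.22 to 0.01, adjusted p = 0.429 from edgeR). The log2 ratio of *Erc1* to *Erc2* was above the Wildtype mean in 6 of 6 libraries labelled Gadd45a-KO, by 0.13 (95% interval -0.01 to 0.27). This difference did not pass the test over all libraries (exact permutation p = 0.0714, 0.179 after adjustment over the 5 pairs). When each of the 12 libraries was dropped in turn it was 0.10 to 0.17, with an adjusted exact p of up to 0.3355. An adjusted exact p under 0.05 came in 1 of these 12 runs, without replicate 6 labelled Wildtype (0.17, adjusted exact p = 0.0433).

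The liprin genes *Ppfia2* and *Ppfia3* encode liprins-alpha, adaptors that bind RIM, ELKS and receptor tyrosine phosphatases. *Ppfia2* had a lowest, median and highest level of 247, 265 and 280 CPM in the libraries labelled Wildtype and of 205, 248 and 265 CPM in those labelled Gadd45a-KO. *Ppfia3* had 160, 181 and 195 CPM and 164, 180 and 203 CPM. For *Ppfia2*, 3 of the 6 libraries labelled Gadd45a-KO lay beneath the whole Wildtype range, a count not made over all genes. The labels covered a like range for *Ppfia3*. The log2 fold change of *Ppfia2* was -0.14 (95% interval -0.27 to -0.01), with an unadjusted p = 0.0391 and an adjusted p = 0.327 from edgeR. It was -0.09 without replicate 4 labelled Gadd45a-KO, -0.08 with the offset for exon length and -0.08 with that for exon GC content. That of *Ppfia3* was 0.02 (95% interval -0.10 to 0.14, adjusted p = 0.927 from edgeR). Their log2 ratio differed by -0.16 (95% interval -0.41 to 0.08, exact permutation p = 0.175, 0.292 after adjustment over the 5 pairs), and by -0.09 without replicate 4 labelled Gadd45a-KO. Exons of *C230021G24Rik* on the opposite strand overlap part of *Ppfia2*.

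**Figure D3:**
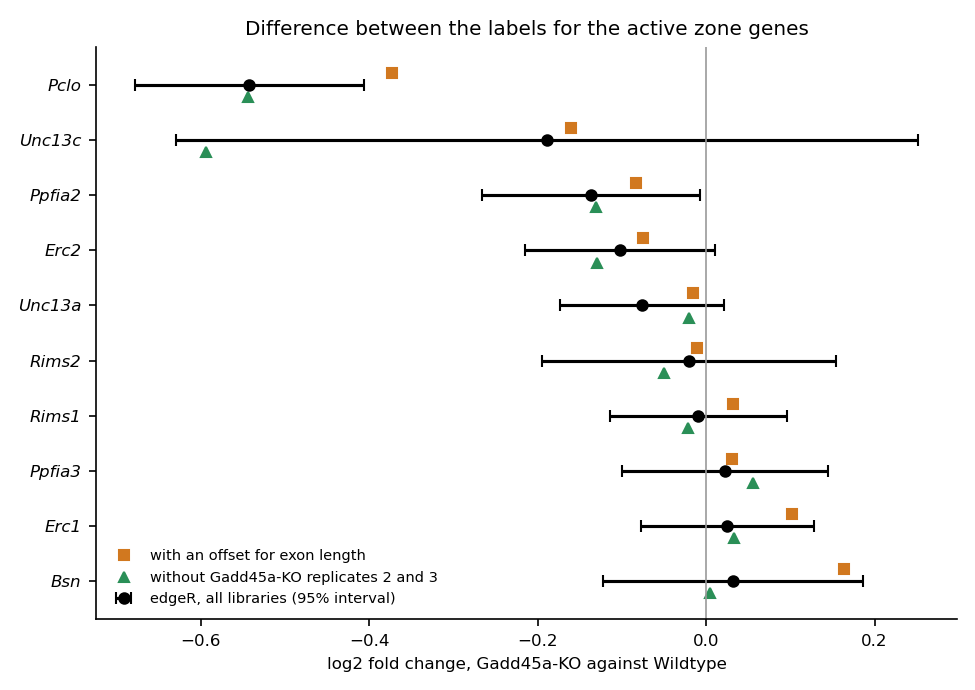
Log2 fold change, Gadd45a-KO against Wildtype, of each active zone gene, as black points with 95% intervals, with the offset for exon length (orange squares) and without replicates 2 and 3 labelled Gadd45a-KO (green triangles). Pclo lies at -0.54, or -0.37 with the offset, and Unc13c moves from -0.19 to -0.59 without both replicates.

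**Figure D4:**
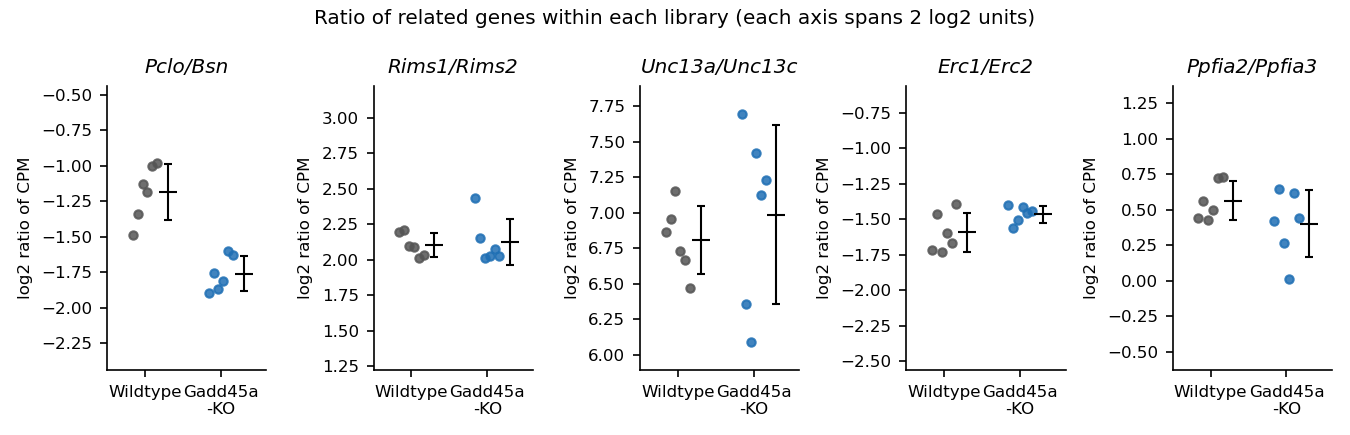
Log2 ratio of CPM of 2 related genes in each library, with the mean ± SD of each label (n = 6). The Pclo to Bsn ratio lies between -1.49 and -0.98 in the libraries labelled Wildtype and between -1.90 and -1.60 in those labelled Gadd45a-KO, and the other ratios overlap between the labels.

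Levels were compared between genes per kb of annotated exon. Among the libraries labelled Wildtype, *Unc13a* was the most abundant member at 67.3 ± 1.94 CPM per kb (SD, n = 6). *Erc2* at 41.1, *Bsn* at 34.3, *Ppfia3* at 33.8 and *Ppfia2* at 33.1 CPM per kb followed, and in this order the ranges of neighbouring genes overlapped. *Rims1* came next at 27.6, then *Pclo* at 11.75 ± 1.11 CPM per kb (SD, n = 6), both with ranges apart from their neighbours. *Erc1* at 9.003 and *Rims2* at 8.64 CPM per kb had overlapping ranges, and *Unc13c* was lowest at 0.777 ± 0.117 CPM per kb (SD, n = 6). In the libraries labelled Gadd45a-KO, *Pclo* had 8.07 ± 0.574 CPM per kb (SD, n = 6), with a range that overlapped that of *Erc1*, at 9.16 ± 0.345 CPM per kb (SD, n = 6). These levels rest on the annotated exons, which may lack part of a transcript. The gene models held 0 nt of exon after the last stop codon for *Unc13c* and 176 nt for *Rims2*. Those of the other members held from 968 nt, for *Ppfia3*, to 4821 nt, for *Erc1*. The study reports read coverage that leaned towards the 3′ end of transcripts in both genotypes. How far this shifts the order of levels was not tested.

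Within families, one form carried most of the reads per length in the Munc13 and ELKS genes. *Unc13a* made up 90.4% ± 0.883 (SD, n = 6) of the Munc13 level in the libraries labelled Wildtype, the relative *Unc13b* 8.54% and *Unc13c* 1.05%. *Erc2* made up 82.0% ± 1.43 (SD, n = 6) of the ELKS level. The liprin-alpha level was spread over *Ppfia3* with 32.5%, *Ppfia2* with 31.9%, *Ppfia4* with 26.1% and *Ppfia1* with 9.54%. *Rims1* made up 54.0% ± 1.72 (SD, n = 6) of the RIM level, with the short form *Rims3* at 10.3% in the libraries labelled Wildtype. These shares rest on the annotated exons as well, with the same limit.

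**Figure D5:**
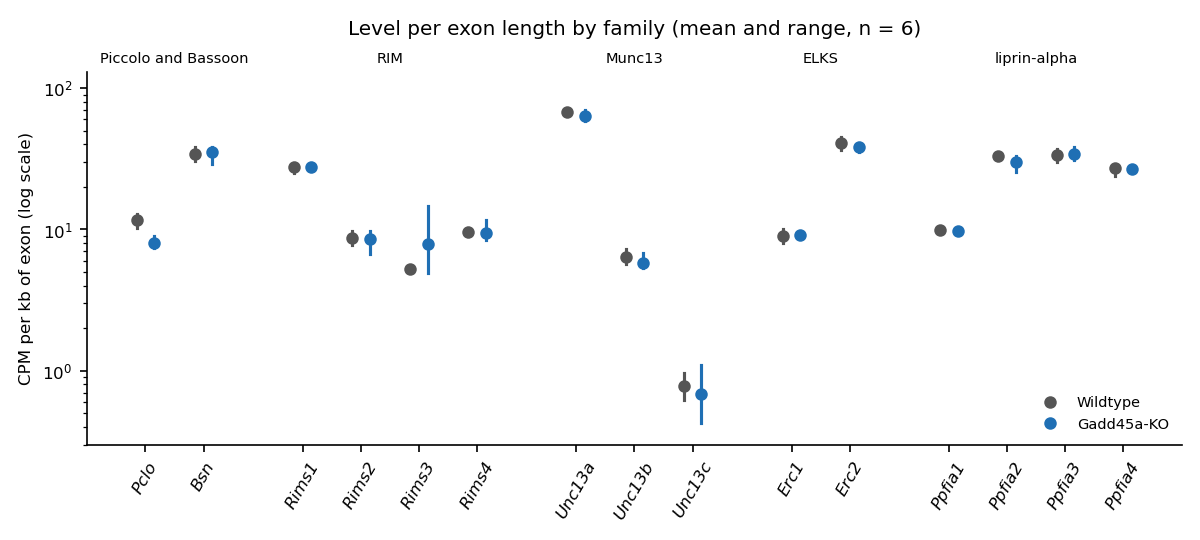
CPM per kb of exon (log axis) of the active zone genes and their closest relatives by family, as the mean (point) and range (line) of 6 libraries per label. Unc13a is highest at 67.3 CPM per kb and Unc13c lowest at 0.777 among libraries labelled Wildtype, and the range of Rims3 labelled Gadd45a-KO reaches up to 14.7.

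Together the members held 2410 ± 116 CPM in the libraries labelled Wildtype and 2277 ± 75.1 CPM under the label Gadd45a-KO (SD, n = 6 each). Without *Pclo* these sums were 2170 ± 107 and 2112 ± 67.6 CPM (SD, n = 6 each). The difference of the *Pclo* means was 75.2 CPM.

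The neighbours of the members in the release machinery were counted from lists of genes chosen by function. The 23 other active zone genes included further RIM, Munc13 and liprin forms, RIM-binding proteins and the CASK complex. They also held receptor tyrosine phosphatases and the calcium channels *Cacna1a* and *Cacna1b*. At 1% FDR 0 were lower and 0 higher in edgeR, against 2.62% and 0.0244% of all tested genes. DESeq2 also called 0 lower and 0 higher, against 660 and 18 of 25852 genes. In edgeR 6 had an unadjusted p under 0.05, against 13.7% of all tested genes. The median log2 fold change of the 23 was -0.02, and 17 were within 0.1 of no difference, a count not made over all genes. The highest value was that of *Rims3*, at 0.58 (SE 0.23, adjusted p = 0.245 from edgeR). *Rims3* had 78.3 and 117 CPM in replicates 2 and 3 labelled Gadd45a-KO, against 38.9 to 54.5 CPM in the other 4 and 40.2 to 43.97 CPM in the libraries labelled Wildtype. Without both replicates its log2 fold change was 0.10 (adjusted p = 0.959 from edgeR).

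Among 22 vesicle fusion genes, 2 were lower and 0 higher at 1% FDR, against 2.62% and 0.0244% of all tested genes, and 3 had an unadjusted p under 0.05, against 13.7%. Their median log2 fold change was -0.01. Both encode tomosyns, proteins that bind SNARE proteins and restrain vesicle priming. *Stxbp5l* had a lowest, median and highest level of 18.02, 21.0 and 24.5 CPM in the libraries labelled Wildtype and of 9.22, 9.69 and 9.97 CPM in those labelled Gadd45a-KO. Every library labelled Gadd45a-KO lay under every one labelled Wildtype, which held for 3.12% of all tested genes. *Stxbp5l* fell by 1.14 on the log2 scale (SE 0.07, adjusted p = 2.00e-07 from edgeR), to 45.5% of the Wildtype level. Its relative *Stxbp5* had 169, 182 and 191 CPM and 147, 157 and 163 CPM, so that its labels did not overlap either. *Stxbp5* fell by 0.21 on the log2 scale (SE 0.04, adjusted p = 0.00551 from edgeR). The call of *Stxbp5* was lost 9 of 12 times when 1 library was dropped, with an adjusted p of up to 0.0214 from edgeR and log2 fold changes from -0.22 to -0.19. It held without Wildtype replicate 1 or 4 or Gadd45a-KO replicate 5. With the offset for exon length it was also lost, at -0.10 (adjusted p = 0.225 from edgeR), as it was without replicates 2 and 3 labelled Gadd45a-KO, at -0.20 (adjusted p = 0.0400 from edgeR). Of the whole list 17 were within 0.1 of no difference on the log2 scale, a count not made over all genes. The highest, *Vamp1*, was at 0.09 (adjusted p = 0.835 from edgeR) and at -0.04 without replicates 2 and 3 labelled Gadd45a-KO.

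Among 18 synaptic vesicle genes, 0 were lower and 0 higher at 1% FDR in edgeR, against 2.62% and 0.0244% of all tested genes. DESeq2 also called 0 lower and 0 higher, against 660 and 18 of 25852 genes. In edgeR 2 had an unadjusted p under 0.05, against 13.7% of all tested genes. The median log2 fold change of the 18 was 0.02, and 15 were within 0.1 of no difference, a count not made over all genes. The highest was *Slc17a6*, a vesicular glutamate transporter abundant in the thalamus, at 1.22 (SE 0.52, adjusted p = 0.310 from edgeR). It had 33.1 and 49.1 CPM in replicates 2 and 3 labelled Gadd45a-KO and 5.57 to 13.5 CPM in the other 4 of that label, and without both replicates its log2 fold change was 0.07. Of 5 general neuron markers 1 was lower at 1% FDR, against 2.62% of all tested genes and 21.0% of those with an exon length of at least 15000 nt. This was *Map2*, a dendritic microtubule protein named after its value was seen, with an exon length of 16447 nt and a log2 fold change of -0.33 (SE 0.06, adjusted p = 0.00389 from edgeR). The summed level of these markers was 2195 to 2404 CPM in the libraries labelled Wildtype and 1993 to 2196 CPM in those labelled Gadd45a-KO. The part of this difference in marker level in the *Pclo* value was not tested.

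The genes whose pattern over the 12 libraries was most like that of *Pclo* were found by the root mean square difference of log2 CPM after subtracting the mean of each gene. They were *Fam120c* at a difference of 0.0675, *Mdga2*, which encodes a neuroligin-binding surface protein, at 0.0764, *Pds5a*, a cohesin regulator, at 0.0787, *Alms1*, a centrosomal protein, at 0.0857, and *Yod1*, a deubiquitinase, at 0.0868. Their log2 fold changes ranged from -0.63 for *Fam120c* to -0.46 for *Alms1*. They were chosen for this likeness, so their values are a description. Their exon lengths ranged from 3825 to 9986 nt, below that of *Pclo*. The measure includes the difference between the labels, so a gene without a like difference lies far from *Pclo* by construction. By it no other active zone gene was near. The closest by this measure was *Erc2*, with 1258 tested genes closer to *Pclo*, and the farthest *Unc13c*, with 13277 genes closer.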

How the data were processed

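Hippocampal RNA of 12 mice was sequenced as stranded poly(A) libraries. According to the study's methods, the authors aligned the reads with TopHat 1.4.1 to NCBIM37/mm9, counted them per Ensembl gene by strand with htseq-count (HTSeq 0.5.4p3), and deposited raw read counts, 1 library per file. Reads without a gene, ambiguous or aligned to several places (24.1% to 26.3% per library) have no gene and were left out. Gene names, coordinates and exon lengths came from GENCODE M1 (NCBIM37), which matched 37205 of 37991 IDs. Its release is earlier than the one the authors used.

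Counts were filtered by filterByExpr, scaled with TMM and compared with the quasi-likelihood test of edgeR 4.0.16 (R 4.3.3) without covariates, at 1% FDR. Standard errors (SE) were derived from the F statistic and the fitted log2 fold change. Log2 CPM used a prior count of 2. One read was 0.0180 to 0.0223 CPM. Pairs of genes were compared by two-sided exact permutation tests (scipy 1.17.1, Python 3.11.15), and figures drawn with matplotlib 3.10.9. DESeq2 1.42.0, RLE, other filters, 5% FDR, a replicate block, offsets for exon length or GC (splines with 5 degrees of freedom) and leaving out libraries were alternatives. In simulated counts 200 genes differed by a log2 fold change of 1. Of these edgeR found 177, with 0 others among 16300 tested, and DESeq2 185, with 13 others among 16399 tested. Smaller changes were not simulated, so this does not show how often changes of the size seen in the members would be found.

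The members and lists were chosen with earlier results of these data known. The rule for named genes took, besides the members, *Gadd45a*, genes of the 3 function lists past 1% FDR, the gene with the highest log2 fold change of each list, and the 5 genes most like *Pclo*. Relatives in the same families, genes overlapping a member, absent markers and examples of a list's content are named outside this rule, as is *Map2*. Pairs of libraries of 1 label differed by more than counting error (chi-square per degree of freedom 8.60 to 37.8). Each library is a separate mouse per the study's methods. Exon-level reads were not analysed here.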

Additional observations from a re-analysis of the deposited data

How the results depend on the processing

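*Pclo* stayed lower at 1% FDR, and every other active zone gene stayed below the threshold, under all alternatives that were run, including 5% FDR, DESeq2, RLE scaling, both other filters, both offsets, the replicate block and each left-out library. *Pclo* ranged from -0.57 to -0.37. Values near 0 changed sign. *Rims1* was 0.032 with the offset for exon length, 0.034 with that offset and the replicate block, and -0.026 to 0.019 with 1 library left out. *Rims2* ranged from -0.056 to 0.049, *Ppfia3* from -0.0046 to 0.059 and the *Rims1* to *Rims2* ratio from -0.0445 to 0.0402 with 1 library left out. The *Erc1* to *Erc2* ratio kept its sign, at 0.10 to 0.17. Without the pair of libraries high in thalamus markers, a choice made after seeing the data, the *Unc13a* to *Unc13c* ratio was 0.56 and *Vamp1* -0.042.

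Over all genes, 430 were lower and 4 higher. With DESeq2 660 were lower and 18 higher, at 5% FDR 726 and 20, and with the offset for exon length 275 and 9. With that offset and the block 10 were higher, and with the offset for GC 15. Without the pair of libraries high in thalamus markers 199 were lower, with fewer samples. With 1 library left out, 239 to 467 were lower, fewer by over 1.5 times without Wildtype replicate 3, 5 or 6 or Gadd45a-KO replicate 1, 2 or 6. Lower vesicle fusion genes numbered 1 with either offset, with the length offset and block, and without the pair of libraries, and 1 to 2 with 1 library left out. The cause was not tested.

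Equal replicate numbers were not taken to pair the libraries, since 5 of 6 same-numbered pairs, not all, had deviations that correlated over 0.1. These correlations ran from -0.0761 to 0.262, with a mean of 0.140 against -0.0279 for different numbers, and 4 of 12 libraries correlated best with their own number. The threshold of 0.1 is not a test of pairing, and whether libraries of equal number share a batch was not tested. With the number as a replicate block, 509 genes were lower and 5 higher, against 430 and 4 without it. The *Pclo* to *Bsn* ratio differed by -0.57 in the block (adjusted p = 0.156 from an exact sign-flip permutation test, whose smallest unadjusted p is 0.0312).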
